A study of Mus musculus with 15 samples.

Results

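The carbonic anhydrases were followed in mouse endometrial epithelial organoids in which SMAD2/3 signaling was lowered genetically, with an inhibitor, or by both. The 8 genes described here, *Car2*, *Car4*, *Car5b*, *Car8*, *Car9*, *Car11*, *Car12* and *Car13*, were taken by symbol from the 16729 genes of the deposited expression table, and all 8 had a row. Of the 16 mouse genes of the family that were looked for, 11 had a value. *Car6*, *Car7* and *Car15* were the other 3 genes with a value, and *Car1*, *Car3*, *Car5a*, *Car10* and *Car14* were not analysed here. The genes were chosen by family name with the measured rise of *Car4* over control + vehicle already known, so none of the counts below is independent evidence about the family.

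Organoids were grown in Matrigel from uterine epithelium separated from mice. Control organoids carried floxed alleles of both genes (Smad2flox/flox; Smad3flox/flox), and *Smad2/3* cKO organoids carried the same floxed alleles together with Ltfcre/+, so that floxed *Smad2* and *Smad3* were shared by all groups. *Ltf*-cre is a knock-in of the recombinase at the lactoferrin gene that is active in uterine epithelium after estrogen exposure, and the methods of the study describe estradiol given at weaning to switch it on. Each genotype was cultured with vehicle (DMSO) or with 500 nM A83-01, an inhibitor of the type 1 receptors ALK4, ALK5 and ALK7 through which TGFβ and activin ligands activate SMAD2 and SMAD3. The groups were control + vehicle (n = 3), control + A83-01 (n = 4), *Smad2/3* cKO + vehicle (n = 4) and *Smad2/3* cKO + A83-01 (n = 4). The study used adult female mice of a mixed C57BL/6J and 129S5/SvEvBrd background, in general 6 to 8 weeks of age, and names no other age for these cultures. Control replicates 1, 2 and 3 carried the same mouse numbers with vehicle and with A83-01, while 1 of these numbers also named a *Smad2/3* cKO + vehicle library. *Smad2/3* cKO + vehicle replicate 2 and *Smad2/3* cKO + A83-01 replicate 1 shared another mouse number, so these 2 groups may not be fully separate mice.

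All values are normalized counts, that is, estimated read counts per gene divided by a size factor for each library, and they summed to between 20241771 and 24423127 per library. The steps between low values put the depth at about 18500000 to 43300000 reads per library, with *Smad2/3* cKO + A83-01 replicate 3 the deepest. This is a rough estimate, since only 5.1% to 12.4% of values below 12 were close to a whole number of such steps. *Smad2* was at 1171 ± 149 (SD, n = 3) in control + vehicle and at 875 ± 43.8 (SD, n = 4) in *Smad2/3* cKO + vehicle organoids, and *Smad3* at 1624 ± 107 and 1576 ± 333. Counts of whole genes cannot show whether the floxed exons were lost. The 7 epithelial markers examined were abundant in every group. Summed, they reached 158678 to 201848 in control + vehicle and 109495 to 171416 in control organoids given A83-01, 87214 to 140904 in *Smad2/3* cKO + vehicle and 87875 to 125818 in *Smad2/3* cKO + A83-01. The sums of stromal, smooth muscle and endothelial markers did not exceed 203, 207 and 27.6, and the red cell markers were not analysed here. The leukocyte sum was 1315 to 2938 in control + vehicle and 2117 to 8763 in the other groups, most of it *Cd68*. The leukocyte gene *Ptprc* was at 12.5 to 38.6 in control + vehicle and at 68.5 to 514 elsewhere, while *Csf1r* overlapped between the groups. *Lyz2* went the other way with A83-01, at 41.2 to 70.8 in control + vehicle and 5.24 to 15.15 in control + A83-01. In *Smad2/3* cKO + A83-01 *Lyz2* was at 0 to 8.73, and *Adgre1* was at 0 to 1.08, beside 0 to 5.25 in control + vehicle. *Smad2/3* cKO + vehicle replicate 2 stood apart with 351 of the macrophage gene *Adgre1*, which was at or below 9.01 in all libraries of the other 3 groups, and 3372 of *Lyz2*. In bulk organoids, fewer cells of a type and less RNA per cell cannot be told apart.

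Carbonic anhydrases speed the conversion of carbon dioxide and water into bicarbonate and a proton. Isoforms sit in different compartments: CAR2 and CAR13 in the cytosol, CAR4 on the outer face of the plasma membrane through a lipid anchor, CAR9 and CAR12 as transmembrane enzymes with an extracellular active site, and CAR5B in mitochondria. CAR8 and CAR11 are related proteins that lack the zinc-binding residues needed for catalysis. In the uterus and other secretory epithelia these enzymes supply bicarbonate and protons to transporters that set the pH of the luminal fluid, and *Car9* is a well-known target of hypoxia-inducible factors.

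On GRCm38, the build of the annotation used here (the authors aligned to GRCm39), *Car4* (ENSMUSG00000000805) lies on chromosome 11 from 84957786 to 84966044 on the plus strand. *Car2* (ENSMUSG00000027562) and *Car13* (ENSMUSG00000027555) both lie on the plus strand of chromosome 3, from 14886273 to 14900770 and from 14641727 to 14663002. *Car9* (ENSMUSG00000028463) occupies chromosome 4 from 43506966 to 43513729 on the plus strand. Its exons share 214 bases with the antisense gene *Gm12454*, which has no row in the table, and because no source used here states that counting used strand, reads of that stretch cannot be assigned to one of them. None of the other members shared exon bases with another annotated gene.

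The start regions of *Car4* and *Car9* are shown because *Car4* was higher and *Car9* lower than control + vehicle in every library with lowered signaling, and because both windows hold the same 2 short motifs. They are RefSeq windows on GRCm38.p6, plus strand, from 250 bases before to 50 bases after the gene start, and the capitals mark the SMAD element CAGAC (or GTCTG on the other strand) and the core of the hypoxia response element, ACGTG (or CACGT).
*Car4*, chr11:84957504-84957803: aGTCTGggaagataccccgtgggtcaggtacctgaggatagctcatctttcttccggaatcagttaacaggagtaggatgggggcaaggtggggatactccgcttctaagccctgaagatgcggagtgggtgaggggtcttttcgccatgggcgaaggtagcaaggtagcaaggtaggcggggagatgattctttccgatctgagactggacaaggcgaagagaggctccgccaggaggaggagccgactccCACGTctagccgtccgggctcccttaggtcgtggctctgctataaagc
*Car9*, chr4:43506776-43507075: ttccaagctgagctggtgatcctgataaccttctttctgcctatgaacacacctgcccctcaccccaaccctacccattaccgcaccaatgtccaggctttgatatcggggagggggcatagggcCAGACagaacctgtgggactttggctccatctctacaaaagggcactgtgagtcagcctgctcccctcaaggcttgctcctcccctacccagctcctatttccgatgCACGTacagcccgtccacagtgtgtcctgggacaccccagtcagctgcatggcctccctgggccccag
In *Car4*, with the first base of the RefSeq gene counted as 0, the SMAD element began at −249 and the hypoxia core at 2. In *Car9* they began at −125 and −18. Windows were found for 5 of the 8 members, and *Car5b* and *Car12* held 1 SMAD element each and no hypoxia core. Both motifs are common: of 32851 mouse windows of this length, 49.6% held CAGAC or GTCTG and 19.6% held ACGTG or CACGT. Another motif, the GC-rich SMAD element GGCGCC, was present in the *Car5b* window and in 11.9% of all windows. These matches describe the letters and not the use of a site.

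*Car2*, the abundant cytosolic enzyme, was the most highly expressed of the 8 genes per length in control + vehicle organoids. Its 3 libraries held 15859, 15253 and 11828 normalized counts. With A83-01 the control organoids held 16470, 10260, 6729 and 9682. *Smad2/3* cKO + vehicle organoids held 7043, 7328, 7215 and 5837, and *Smad2/3* cKO + A83-01 organoids held 8108, 7678, 7729 and 5261. Every *Smad2/3* cKO library was therefore below every control + vehicle library, whereas control + A83-01 replicate 1 was above all of them and the rest of that group lay lower. Among all genes tested, 16% lay lower than control + vehicle without overlap in *Smad2/3* cKO + vehicle and 16.9% in *Smad2/3* cKO + A83-01.

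*Car2* fell in *Smad2/3* cKO + vehicle compared with control + vehicle, with means of 14313 ± 2173 (SD, n = 3) in the controls and 6856 ± 689 (SD, n = 4) without SMAD2/3. By limma the log2 fold change was −1.06 with a standard error of 0.15 (95% confidence interval −1.40 to −0.71, adjusted p = 0.00264), and it was −1.09 (adjusted p = 0.00615) without the library with the *Adgre1* signal. *Car2* also fell in *Smad2/3* cKO + A83-01, to a mean of 7194 ± 1303 (SD, n = 4) and a log2 fold change of −1.0 with a standard error of 0.19 (adjusted p = 0.00478). Both calls depended on the fit and on single libraries: adjusted p was 0.0108 and 0.0172 without the mean trend in the variance, 0.0146 and 0.0244 without control + vehicle replicate 1, and 0.0143 and 0.024 without control + vehicle replicate 2. The second call was lost too without *Smad2/3* cKO + A83-01 replicate 3 (adjusted p = 0.011) or replicate 4 (0.0104). Across all settings adjusted p lay between 0.00165 and 0.0186 for the first comparison and between 0.00195 and 0.0364 for the second. The epithelial marker sum was also lower in every *Smad2/3* cKO library than in every control + vehicle library, and its part in the *Car2* difference was not tested. Of its members, *Krt8*, *Krt18*, *Krt19* and *Cldn4* were lower without overlap, and *Cdh1* overlapped. *Epcam* did not fall, with means of 23268 in control + vehicle, 24265 in *Smad2/3* cKO + vehicle and 24536 in *Smad2/3* cKO + A83-01. *Pax8* rose, from 5083 to 8096 and 9219. With A83-01 in control organoids *Car2* had a log2 fold change of −0.47 (95% confidence interval −1.11 to 0.17, adjusted p = 0.382), and its groups overlapped.

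*Car13*, the other cytosolic enzyme, was scarce beside *Car2*. It was at 128, 107 and 109 in control + vehicle, at 129, 101.03, 45.5 and 49.8 in control + A83-01, at 116, 80.3, 67.2 and 52.4 in *Smad2/3* cKO + vehicle and at 52.5, 115, 66.4 and 61.0 in *Smad2/3* cKO + A83-01. Each of the 3 groups held 1 library above the lowest control + vehicle library, so no group separated from it. The log2 fold changes from control + vehicle were −0.62, −0.59 and −0.69, with 95% confidence intervals of −1.59 to 0.35, −1.34 to 0.17 and −1.46 to 0.08, and none passed the test (adjusted p = 0.452, 0.252 and 0.183).

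*Car4*, the membrane-anchored enzyme that acts on carbon dioxide and bicarbonate outside the cell, was listed at 0, 0 and 1.78 in control + vehicle. With A83-01 the 4 control libraries held 624, 452, 1390 and 3832. *Smad2/3* cKO + vehicle libraries held 2508, 2030, 881 and 4468, and *Smad2/3* cKO + A83-01 libraries held 15561, 2153, 2045 and 9122. Every library in which signaling was lowered was above every control + vehicle library, and the spread inside each of the 3 groups was wide. Of all genes tested, 10.3% lay higher without overlap in control + A83-01, 14.8% in *Smad2/3* cKO + vehicle and 16.1% in *Smad2/3* cKO + A83-01. Because *Car4* was chosen with this rise in view and its control values are at or near 0, the rise is given as a description, without a fold or a test.

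Among the 3 groups that expressed it, *Car4* was not separated. A83-01 in *Smad2/3* cKO organoids gave a log2 fold change of 1.24 (95% confidence interval −0.30 to 2.79, adjusted p = 0.994 from limma). *Smad2/3* cKO + vehicle compared with control + A83-01 gave 0.93 (95% confidence interval −0.54 to 2.41, adjusted p = 0.738). *Smad2/3* cKO + A83-01 compared with control + A83-01 gave 2.17 (95% confidence interval 0.40 to 3.94), where the unadjusted p was 0.021 and the adjusted p 0.41. These intervals leave room for *Car4* to differ between the groups.

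*Car9*, the transmembrane enzyme linked to hypoxia, was at 148, 225 and 173 in control + vehicle. It was at 71.9, 89.1, 121 and 59.4 in control + A83-01, at 23.5, 60.5, 111 and 23.6 in *Smad2/3* cKO + vehicle and at 17.5, 22.2, 50.2 and 92.3 in *Smad2/3* cKO + A83-01. All 12 libraries with lowered signaling were below the lowest control + vehicle library. Of all genes tested, 11.5% lay lower without overlap with A83-01, 16% with the deletion and 16.9% with both. The log2 fold changes from control + vehicle were −1.11 (95% confidence interval −1.87 to −0.35) for A83-01, −2.0 (−3.25 to −0.75) for the deletion and −2.25 (−3.49 to −1.02) for both. None passed the threshold of 0.01, with adjusted p = 0.0862, 0.0352 and 0.0167 from limma. Without the library with the *Adgre1* signal the deletion gave −2.15 (adjusted p = 0.048). The value for the deletion passed without *Smad2/3* cKO + vehicle replicate 3 (adjusted p = 0.00873, range over all settings 0.00873 to 0.116), and that for both passed without *Smad2/3* cKO + A83-01 replicate 4 (0.00669, range 0.00669 to 0.0707).

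*Car12*, the transmembrane enzyme of secretory epithelia, was abundant and variable. It was at 6558, 8025 and 8990 in control + vehicle, at 6479, 11754, 3577 and 3075 in control + A83-01, at 2447, 27873, 10601 and 5905 in *Smad2/3* cKO + vehicle and at 14829, 4949, 9455 and 7187 in *Smad2/3* cKO + A83-01. The lowest and the highest of the 15 libraries were both *Smad2/3* cKO + vehicle. The highest value came from the library with the *Adgre1* and *Lyz2* signal, and the part of that signal in it was not tested. The log2 fold change of the deletion was 0.05 (95% confidence interval −1.44 to 1.54) with that library and −0.54 without it (adjusted p = 0.965 and 0.452, range over all settings 0.422 to 0.975).

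*Car5b*, the mitochondrial enzyme, was the steadiest member. It ranged from 617 to 776 in control + vehicle and 654 to 854 in control organoids given A83-01, 519 to 912 in *Smad2/3* cKO + vehicle and 557 to 737 in *Smad2/3* cKO + A83-01. Its log2 fold change was 0.01 (95% confidence interval −0.39 to 0.42) with A83-01 and 0.08 (−0.40 to 0.57) with the deletion, intervals that leave out a 2-fold change.

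*Car8* and *Car11*, the 2 members without catalytic activity, were scarce. *Car8* was at 52.5, 58.1 and 74.9 in control + vehicle, at 2.56, 36.2, 2.72 and 6.43 in control + A83-01, at 3.85, 32.3, 50.6 and 13.2 in *Smad2/3* cKO + vehicle and at 8.79, 0, 6.83 and 11.4 in *Smad2/3* cKO + A83-01. As for *Car9*, all 12 libraries with lowered signaling were below every control + vehicle library. The log2 fold change was −3.00 (95% confidence interval −4.90 to −1.09, adjusted p = 0.0673 from limma) for A83-01. For the deletion it was −1.75 (−3.47 to −0.02, adjusted p = 0.144), so neither passed. In the comparison with both, *Car8* reached the mean of 10 needed for a test only through control + vehicle. It is given there by its levels, 6.75 ± 4.87 (SD, n = 4) beside 61.8 ± 11.7 (SD, n = 3).

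*Car11* was at 7.07, 25.4 and 28.7 in control + vehicle and at 5.74 to 11.6 when controls received A83-01. It ran from 12.7 to 26.7 with the deletion and from 5.18 to 44.5 with both. The libraries of *Smad2/3* cKO + vehicle all lay above those of control + A83-01, at 18.8 ± 5.93 beside 8.83 ± 3.14 (SD, n = 4 each). By limma the log2 fold change was 1.02 (95% confidence interval −0.15 to 2.19, adjusted p = 0.722). In that comparison 1.82% of all genes tested lay higher without overlap. *Car11* reached the mean needed for a test there only through *Smad2/3* cKO + vehicle. Neither the test nor the lack of overlap is therefore evidence of a difference. In its other comparisons with control + A83-01, *Car11* likewise reached that mean only through the other group. None of the log2 fold changes of *Car5b*, *Car11*, *Car12* or *Car13* passed the test in any comparison.

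**Figure D1:**
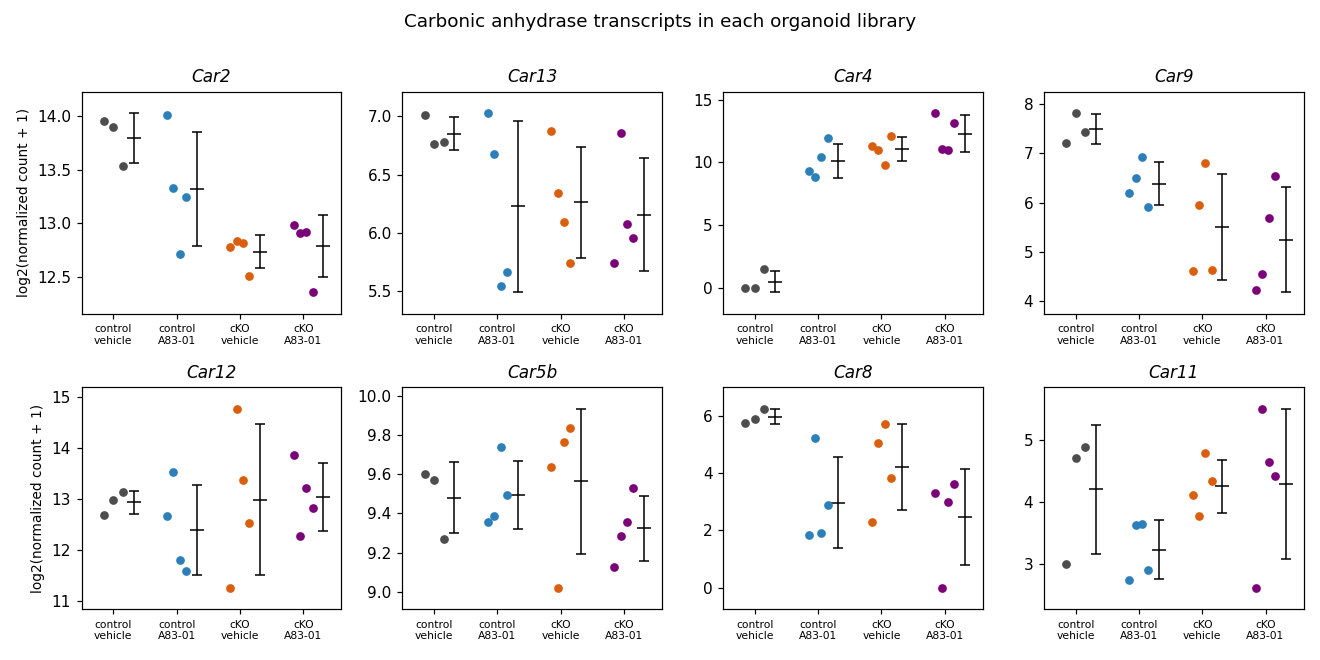
Normalized counts of the 8 carbonic anhydrases in each library, on a log2(normalized count + 1) axis that differs between panels and does not start at 0. Points are libraries, and the bar beside each group gives its mean and SD on the log2 scale (n = 3 for control + vehicle, n = 4 for the others). *Car4* sits at 0, 0 and 1.78 in control + vehicle and between 452 and 15561 in all other libraries, while *Car8* and *Car9* lie highest in control + vehicle.

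A gene passed the thresholds with an adjusted p below 0.01 from limma and a fold above 1.4 or below its reciprocal. *Car4* is left out of the counts against control + vehicle, since its values there chose the list and it reached the filter on low values only through the groups where it was high. Of the other 7 members, 0 passed with A83-01 in control organoids, where 2.27% of all genes tested were called and 2 of the 7 had an unadjusted p below 0.05. With the deletion 1 of 7 passed, against 7.38% of all genes, and with both 1 of 7 passed, against 11.7%. The gene that passed was *Car2* each time, and both comparisons share the same 3 control + vehicle libraries. Among all members, *Car4* included, 0 of 8 passed with A83-01 in *Smad2/3* cKO organoids (0% of all genes called) and 0 of 8 in *Smad2/3* cKO + vehicle vs. control + A83-01 (0%). In *Smad2/3* cKO vs. control with A83-01 in both, 0 of 7 passed (0.0232%), where *Car8* was not tested because its mean was below 10. By limma at an unadjusted p below 0.05, these 3 comparisons held 0, 1 and 1 members. Of the 7 members without *Car4*, 3 lay below that cut with the deletion and 3 with both, where *Car8* was among them. These 7 include *Car8* with both and *Car11* with A83-01, although each reached the filter on low values there only through control + vehicle. The share of all genes below that cut was not counted, here or for the lists below, so no result is drawn from such counts.

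Over the 7 members without *Car4*, the median log2 fold change was −0.62 for A83-01 in control organoids, −0.59 for the deletion and −0.69 for both, beside −0.02, 0 and −0.01 over all genes. Each median was the value of *Car13*, whose groups overlapped and whose intervals included 0. *Car11* with A83-01 (means 8.8 and 20.4) and *Car8* with both (6.75 and 61.8) reached the mean needed for a test only through control + vehicle. Their negative values lie below the medians of these comparisons, which were not recalculated without them. All these comparisons share the same control + vehicle libraries, so the medians do not show a fall of the family. The genotype by A83-01 interaction asks whether the inhibitor acted differently in the 2 genotypes. Of the 7 members without *Car4*, 0 passed in limma's fit of it and 0 had an unadjusted p below 0.05, while 0.551% of all genes were called. *Car2* had an interaction of 0.53 on the log2 scale (95% confidence interval −0.17 to 1.22, adjusted p = 0.527). No test of the interaction is given for *Car4*, because it rests on the control + vehicle values at or near 0.

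**Figure D2:**
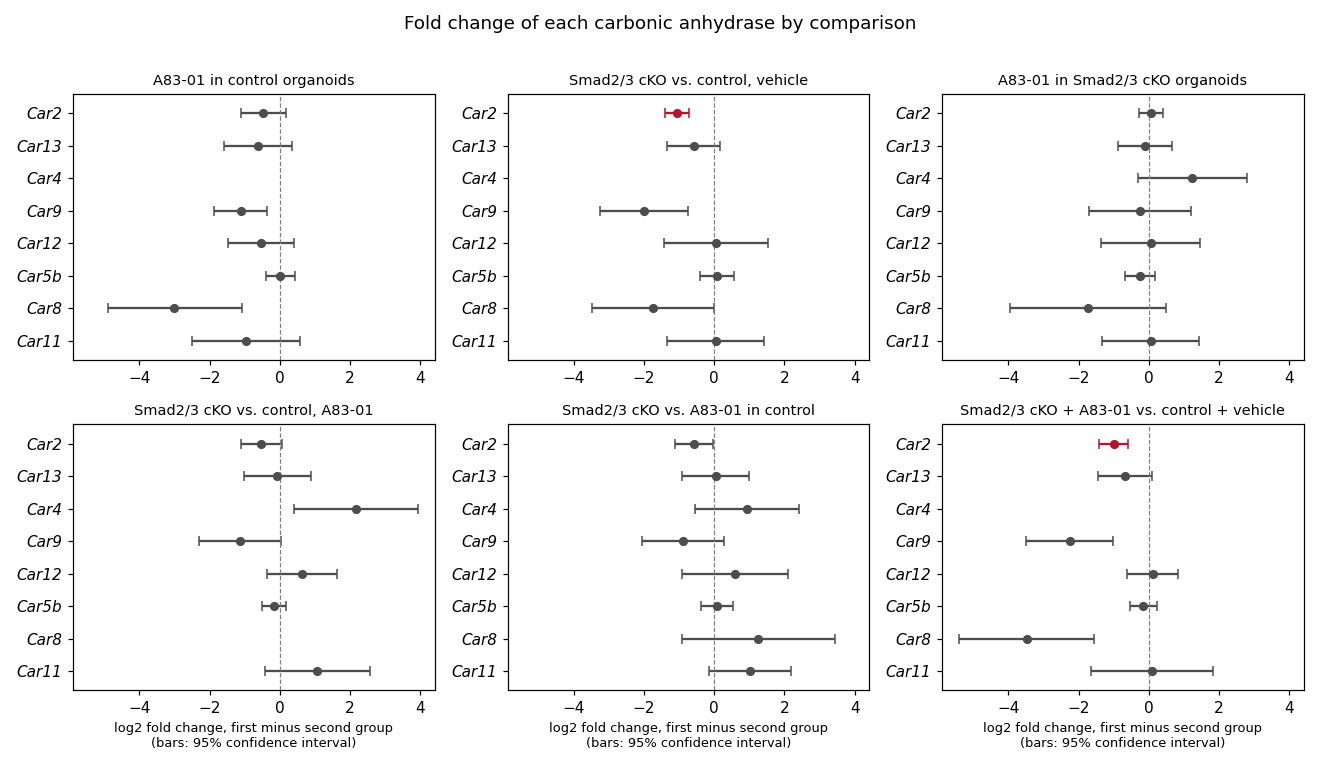
Log2 fold change of each member (points) with its 95% confidence interval (bars) in the 6 pairwise comparisons, first group minus second, on the log2(normalized count + 1) scale. *Car4* is left out where control + vehicle is the second group and *Car8* where it was not tested. The only red points, past the thresholds, are those of *Car2* at −1.06 and −1.0 in both comparisons of *Smad2/3* cKO organoids with control + vehicle.

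To compare levels between genes, normalized counts were divided by the length of each gene's exons in kilobases, from 1926 bases for *Car11* to 7597 bases for *Car12*. On this scale *Car2* made up 81.7% ± 4.11 (SD, n = 3) of the summed level of the 8 genes in control + vehicle, *Car12* 14.6% ± 3.79, *Car5b* 1.56% ± 0.025 and *Car9* 1.10% ± 0.232, and each of the other 4 less than that. In order of level came *Car2*, *Car12*, *Car5b*, *Car9*, *Car13*, *Car8*, *Car11* and *Car4*. Neighbours in this order did not overlap except *Car5b* and *Car9*, at 97.1 to 122 and 64.1 to 97.8 normalized counts per kb, and *Car8* and *Car11*, at 13.6 to 19.4 and 3.67 to 14.9. Among *Smad2/3* cKO + vehicle libraries the share of *Car2* was 50.4% ± 11.6 (SD, n = 4), that of *Car4* 22.3% ± 14.3 and that of *Car12* 23.7% ± 17.5. With A83-01 added, *Car2* stood at 42.8% ± 19.3 and *Car4* at 39.4% ± 22.5, and these overlapped.

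The share of *Car4* differed from library to library within a group. It was 59.3% in *Smad2/3* cKO + A83-01 replicate 1 and 18.4% in the library with the lowest share of that group, and in control + A83-01 it ran from 3.70% to 29.9%. Summed over the 8 genes, control + vehicle libraries held 6322 to 7670 normalized counts per kb. The sum ran from 4170 to 8164 where controls received A83-01, from 4701 to 7885 with the deletion and from 5098 to 13338 with both. These ranges overlapped.

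**Figure D3:**
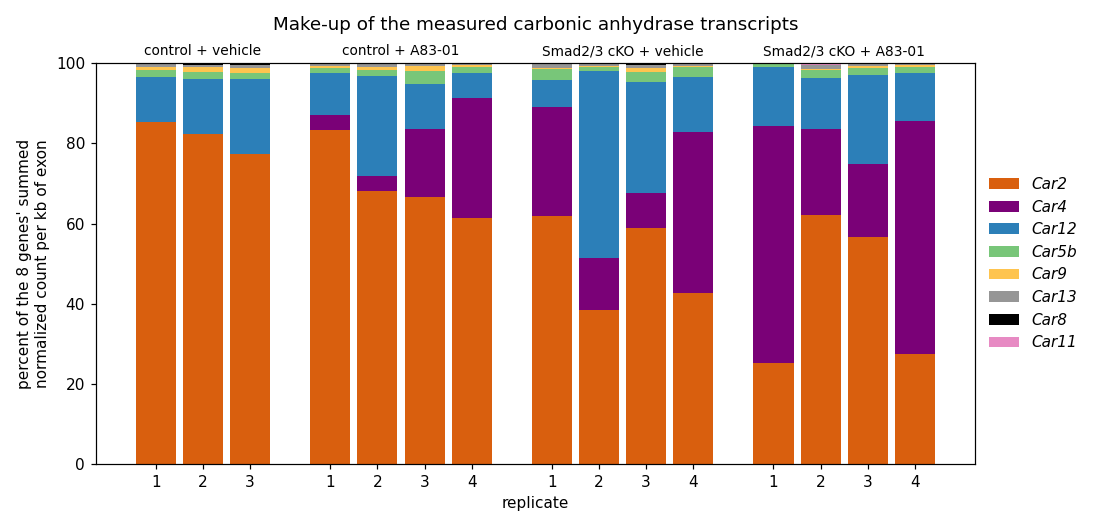
Share of each of the 8 genes in their summed normalized count per kb of exon, in percent, for each library. *Car2* fills 77.3% to 85.4% of the bar in control + vehicle, and *Car4* takes up 3.70% to 59.3% of the bar in the other 12 libraries.

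Of the other carbonic anhydrases, *Car6*, a secreted enzyme, did not exceed 4.48 normalized counts in any library. *Car7*, a cytosolic enzyme, was at 6.24 to 34.1, and *Car15*, a membrane-bound enzyme, at 0 to 33.2. In each pairwise comparison 2 of these 3 genes were tested, and none was called.

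Genes that move bicarbonate and protons were taken as a list with results of these samples known. Of the genes listed for bicarbonate transport, 1 of the 15 tested fell with A83-01 in control organoids (2.27% of all genes called). With the deletion 3 of 16 fell (7.38%), and none rose in either comparison. *Slc4a11*, listed by its family name and described below as boron and proton transporter-like, was the 1 that fell with A83-01. It was also among those that fell with the deletion and with both. With both, 4 of 17 fell and 2 rose (11.7% of all genes called), but 3 of these 6, *Cftr*, *Slc4a3* and *Slc4a5*, reached the mean of 10 needed for a test only through the group where they were high, and are given by their levels in that comparison. The chloride and bicarbonate channel *Cftr* held 1319 to 1903 in control + vehicle libraries. It held 7.39 to 320 in those of control + A83-01, 26.8 to 249 in those of *Smad2/3* cKO + vehicle and 1.33 to 19.8 where both were combined. All libraries of the other groups were below those of control + vehicle. The same held for 11.5% of all genes tested with A83-01, 16% with the deletion and 16.9% with both. Limma called the fall of *Cftr* with the deletion (−4.01 ± 0.63 on the log2 scale, standard error, adjusted p = 0.00361). With A83-01 alone the log2 fold change was −4.87 (adjusted p = 0.0225), which did not pass without the mouse pairs. With the mice as a replicate block it was −3.97 with a standard error of 0.50 and passed (adjusted p = 0.00567), a fit to which control + A83-01 replicate 4, without a partner, adds nothing.

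The boron and proton transporter-like gene *Slc4a11* fell in all 3 comparisons with control + vehicle, from 4006 ± 814 (SD, n = 3) to 1222 ± 163, 771 ± 165 and 548 ± 159 (SD, n = 4 each). Its log2 fold change was −1.70 with A83-01 (adjusted p = 0.0017), −2.38 with the deletion (0.000304) and −2.90 with both (9.5e-05). The sodium bicarbonate cotransporter *Slc4a4* fell from 1134 ± 241 to 389 ± 145 with the deletion (log2 fold change −1.59, adjusted p = 0.0067) and to 278 ± 103 with both (−2.08, adjusted p = 0.00114). *Slc4a8*, a sodium-driven chloride bicarbonate exchanger, rose (log2 fold change 2.11) in the comparison with both. There *Slc4a3*, an anion exchanger, averaged 9.58 ± 4.30 (SD, n = 4), beside 105 ± 42.0 (SD, n = 3) for control + vehicle, and *Slc4a5* was listed at 0 in all 3 control + vehicle libraries and at 8.46 to 24.6 with both.

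**Figure D4:**
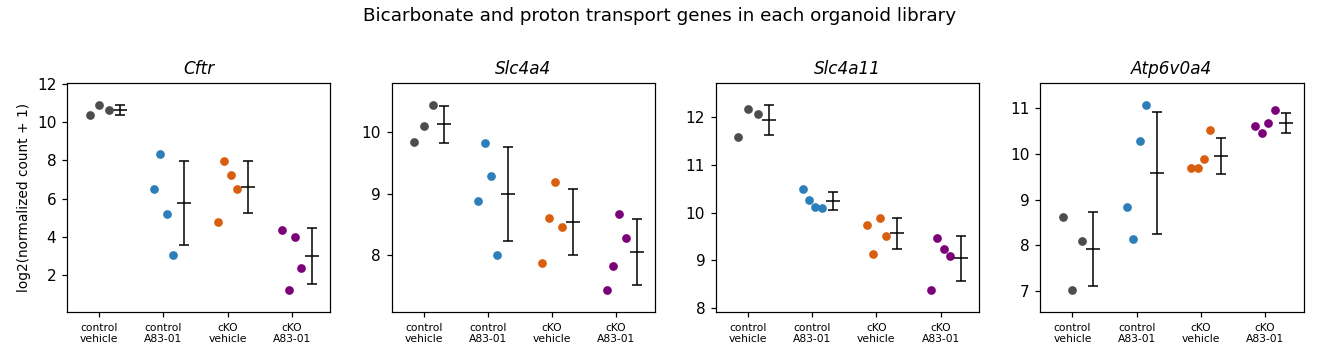
Normalized counts of 4 genes of bicarbonate and proton transport in each library, on a log2(normalized count + 1) axis that differs between panels and does not start at 0. Points are libraries and bars give the mean and SD on the log2 scale (n = 3 for control + vehicle, n = 4 for the others). *Cftr* and *Slc4a11* lie highest in control + vehicle, whose libraries do not overlap with those of the other groups, and *Atp6v0a4* lies lowest there, at 130 to 391, with overlap in control + A83-01.

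Of the genes for acid extrusion, 1 of the 13 tested was called with the deletion, where 7.38% of all genes were called, and 1 of 13 with both, against 11.7%. In each case it was *Atp6v0a4*, a subunit of the proton-pumping ATPase. It rose from 265 ± 131 (SD, n = 3) to 1020 ± 310 (log2 fold change 2.04, adjusted p = 0.00607) and to 1648 ± 252 (2.76, adjusted p = 0.000413, SD, n = 4 each). None of the 14 tested was called by limma with A83-01 in control organoids (4 at an unadjusted p below 0.05), where *Atp6v0a4* ran from 283 to 2145 (log2 fold change 1.67, adjusted p = 0.185). The 4 include *Slc9a7* (means 9.39 and 33.8), which reached the mean needed for a test only through control + vehicle. With the deletion and with both, *Slc9a4* and *Slc9a7* were likewise tested only through control + vehicle, and neither was called.

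Targets of hypoxia-inducible factors, the group in which *Car9* is usually counted, were examined as a list of 20 genes, all of which were tested. *Egln3*, an oxygen-sensing prolyl hydroxylase, rose with A83-01 in control organoids, from 1154 ± 232 (SD, n = 3) to 2620 ± 416 (SD, n = 4, log2 fold change 1.19, adjusted p = 0.00875), and was the 1 gene of 20 called, against 2.27% of all genes. With the mice as a replicate block *Ankrd37*, at 2.08 (adjusted p = 0.0533), was called as well, at 2.18 (adjusted p = 0.00909). By limma none of the 20 was called with the deletion, and 4 had an unadjusted p below 0.05. With both, 3 of 20 were called, against 11.7% of all genes, and these were *Egln3* (1.57), the angiogenic factor gene *Vegfa* (1.98) and *Ankrd37* (3.55), which rose. The log2 fold change of 3 of the 20 was negative there and none of these passed. They were *Adm* (−1.38, adjusted p = 0.0456), *Hk2* (−0.57, adjusted p = 0.115) and *P4ha2* (−0.11, adjusted p = 0.778), and the libraries of *Adm* and *Hk2* lay below those of control + vehicle without overlap, as did those of *Car9* (−2.25). In that comparison 16.9% of all genes tested lay lower without overlap. The median log2 fold change of the list was 0.65 with both, beside −0.01 over all genes. It was 0.15 with A83-01 in control organoids and 0.16 with the deletion, beside −0.02 and 0 over all genes.

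Likeness of expression was measured as Pearson's r of log2 values with 13066 genes over the 15 libraries, which share their group differences and their depths, and it is given as a description. The 2 genes most like *Car4* were *Hsd11b1*, which encodes a glucocorticoid-activating enzyme (r = 0.991), and *Napsa*, an aspartic protease gene (r = 0.987). *Car2* was most like the zinc transporter gene *Slc39a4* (r = 0.934) and *Rnpep* (0.932), *Car9* most like *Cavin3* (0.905) and *Arhgap18* (0.899), and *Car8* most like *Abca1* (0.900) and *Rad52* (0.892). For *Car12* the leading gene was *Tmprss2* (0.895), for *Car13* *Tmem176b* (0.920), for *Car5b* *Gal3st4* (0.840) and for *Car11* *Ddo* (0.809). Between members, the strongest relations were those of *Car4* with *Car2* (r = −0.763) and with *Car9* (r = −0.737), and *Car2* with *Car13* stood at 0.652. Every r of *Car4* includes its gap between control + vehicle and the other groups. That gap was known when the list was chosen, so these values are no separate evidence about *Car4*.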

How the data were processed

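RNA from organoids of 15 cultures was made into libraries with a SMART-Seq v4 kit. Per the labels and methods, the authors quantified reads with Salmon 1.4.0 (GRCm39) and analysed them with DESeq2 1.32.0; the deposited values are a normalized signal, estimated counts divided by a size factor. Between 5.1% and 12.4% of values below 12 were within 0.01 of a whole number of reads, so read counts could not be recovered and no count model was run. Groups came from the labels. Each pair of groups was fitted on its own with limma 3.58.1 (R 4.3.3, variance trend, log2(normalized count + 1), mean of at least 10, two-sided, Benjamini-Hochberg adjustment over all genes tested), and the interaction in 1 fit of all samples. Fold changes on this scale understate those of low genes. The fit was tested on simulated data. Members and gene lists were chosen with earlier results of these data known; all 8 members and the listed genes that passed are named. Replicate numbers of the control groups mark the same mice, and their deviations correlated (r = 0.354 to 0.423 for the 3 pairs); no other pair of groups met this. Replicates are organoid cultures, so p-values measure the spread between these cultures.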

Additional observations from a re-analysis of the deposited data

Results flagged for a closer look

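In *Smad2/3* cKO + A83-01, the lowest *Car2* value (5261 normalized counts) stood apart from the other 3 by a gap of 0.849 of the group's range, above the 95% limit of Dixon's test for 4 samples. In control + A83-01 the highest *Car8* value (36.2) stood apart by 0.885 of the range. These were 2 of 24 pairs of member and group examined, and chance alone flags about 1 in 20 groups. Groups of 3, such as control + vehicle, were not tested.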

How the results depend on the processing

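The 55 fold changes of members were refitted 1009 times under the alternatives, and 942 refits kept direction and side of the threshold. The number of members called, here with *Car4* counted although the choice of the list fixed its passing, was unchanged for A83-01 in control organoids and for the 3 comparisons without control + vehicle. With the deletion it fell from 2 to 1 without the variance trend and with a replicate block, was 3 at adjusted p below 0.05 and was 1 to 3 when a library was left out. With the deletion and A83-01 it fell from 2 to 1 without a filter, without the trend and with the replicate block, was 3 with a pseudocount of 10, was 4 at adjusted p below 0.05 and was 1 to 3 when a library was left out. *Car8* or *Car9* were the members gained. *Car8* was gained only with the deletion and A83-01, where it reached the filter on low values through control + vehicle alone, so its gains are no support. The interaction count, which was *Car4* alone, fell from 1 to 0 with a pseudocount of 10. *Car2* was the member lost in the pairwise fits. The replicate block changed no other call of a member. It gave *Car2* an adjusted p of 0.0186 with the deletion and 0.0364 with both, and over all genes it left 211 of 970 and 568 of 1538 calls by number. In these comparisons only replicate 1 of control + vehicle and of *Smad2/3* cKO + vehicle carried the same mouse number. Deviations of replicates with the same replicate number correlated little (r = 0.015 to 0.077 and −0.169 to 0.033), which does not settle whether mice were shared. In control organoids, where replicate numbers mark the same mice, the block gave 399 calls against 295 and the mouse number gave the same values. In that fit, added after seeing the data for the listed genes, *Cftr* (−3.97) and *Ankrd37* were gained. The cause of these changes was not tested.

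The sign changed in 48 refits of 15 fold changes, all of them uncalled and at most 0.59 in size (adjusted p of at least 0.452). By setting, quantile normalization gave −0.04 (*Car12*, deletion), −0.01 (*Car2* and *Car12*, A83-01 in *Smad2/3* cKO), −0.04 (*Car13*, deletion against A83-01) and −0.04 (*Car12*, both). Rescaling to equal totals gave −0.1 (*Car5b*, A83-01), −0.01 (*Car5b*), −0.04 (*Car11*) and −0.04 (*Car12*) for the deletion, −0.01 (*Car11*, A83-01 in *Smad2/3* cKO), and −0.05 (*Car11*) and −0.04 (*Car12*) for both. A pseudocount of 10 gave −0.01 (*Car11*, deletion) and the replicate block −0.01 (*Car5b*, deletion). With a library left out, the ranges were −0.09 to 0.07 (*Car5b*, A83-01), −0.02 to 0.26 (*Car5b*), −0.55 to 0.39 (*Car11*) and −0.54 to 0.63 (*Car12*) for the deletion, and −0.02 to 0.2 (*Car2*), −0.69 to 0.18 (*Car9*), −0.36 to 0.6 (*Car11*), −0.52 to 0.65 (*Car12*) and −0.34 to 0.1 (*Car13*) for A83-01 in *Smad2/3* cKO. They were −0.3 to 0.2 (*Car13*) for the deletion under A83-01, −0.02 to 0.25 (*Car5b*), −0.01 to 1.16 (*Car12*) and −0.19 to 0.3 (*Car13*) for deletion against A83-01, and −0.5 to 0.65 (*Car11*) and −0.16 to 0.36 (*Car12*) for both. By the same rough estimate 1 read was worth about 0.54 to 1.29 normalized counts, so low values such as those of *Car8*, *Car11* and, in control + vehicle, *Car4* rest on few reads.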
